A study of Homo sapiens with 4 samples.

Results

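The 7 genes described here code for secreted proteins that act on blood vessels and were followed in A375, a human melanoma cell line: VEGFA, VEGFB, VEGFC and PGF of the vascular endothelial growth factor (VEGF) family, ESM1, ADM and ANGPTL4. They are 7 of 23284 gene symbols measured in 4 libraries of poly(A) RNA, prepared with an Ion RNA-seq kit. The genes were chosen by their measured values, since ESM1 and VEGFA stood far higher with MAGE-A1 overexpression, so the overexpression ratios of these genes are a description and support nothing further. All 4 libraries came from stably transfected A375 cells: with empty pcDNA3 (vector), with pcDNA3 carrying MAGE-A1 (overexpression), with pRNAT carrying a scrambled hairpin (scramble) and with pRNAT carrying a hairpin against MAGE-A1 (knockdown). Whether each line is a clone or a pool is not given in the sources used here. Each group held 1 library, so there was no test and no replicate spread, and every difference compares 2 libraries rather than 2 conditions.

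VEGFA drives the growth and leakiness of blood vessels through receptor tyrosine kinases on endothelial cells, and tumours make it under low oxygen, growth factor signalling and stress. PGF and VEGFB bind FLT1, while VEGFC acts mainly on FLT4 of lymphatic vessels. ESM1 (endocan) is a proteoglycan secreted by activated endothelial cells and by some tumours, and its gene responds to VEGF in endothelium. ADM encodes adrenomedullin, a peptide that widens vessels, and ANGPTL4 encodes an inhibitor of lipoprotein lipase that responds to fasting and low oxygen.

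Levels are RPKM, reads scaled to transcript length and library size, so that genes can be compared per length. The steps between low values gave a depth of 24510000 reads with vector, 12620000 with overexpression, 16310000 with scramble and 19640000 with knockdown. Each ratio is log2((RPKM + 1)/(RPKM + 1)) of a library over its own control, and "higher" or "lower" as a call means at least 2-fold. Folds of RPKM are given with 95% exact conditional (Clopper-Pearson) intervals from estimated reads, which cover counting error only. MAGEA1, which the constructs target, was at 1.80 RPKM with vector, 126 with overexpression, 0.767 with scramble and 0.473 with knockdown. The knockdown pair had a fold of 0.616 with an interval of 0.284 to 1.29. A lower MAGEA1 level than with scramble was thus not detectable at this depth in the library labelled knockdown. Over vector its fold was 0.262 (0.135 to 0.469), but the scramble library too was lower than vector, at 0.426 (0.242 to 0.718). Of 8 melanocyte lineage markers 4 reached 1 RPKM in every library, led by SOX10 at 281 to 336 RPKM. S100B was at 88.8 RPKM with vector and 17.4 with overexpression, DCT ran from 1.14 (knockdown) to 8.16 (scramble), and the pigment enzyme TYR was listed at 0 in 3 libraries. Of 12 endothelial markers 3 to 5 reached 1 RPKM and their summed level was 15.0 to 26.0 RPKM. That sum was highest in the overexpression library through ROBO4 (3.70 RPKM with vector, 13.6 with overexpression), while FLT1 was at 8.84 and 8.93, KDR at 3.12 and 0.404 and the defining markers PECAM1 and CDH5 at 0.326 or less in every library. The part of other cells in the values below was not tested. In bulk RNA, fewer cells that make a transcript and less transcript per cell cannot be told apart.

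The stretches just before annotated transcription start sites show where these genes differ in sequence. RefSeq windows (GRCh38.p14) were found for 6 of the 7 genes, all but VEGFA. Those of ESM1, ADM and ANGPTL4 lie inside the gene spans given below, so other annotated starts lie upstream. Which start A375 cells use was not tested. The 250 bases before the start are printed 5′ to 3′ along each gene's strand for ESM1, ADM and ANGPTL4, whose ratios with overexpression were positive, and for VEGFB, the most abundant of the 7 genes with knockdown. Capitals mark every match to the motifs searched, and the last base printed is position -1.
ESM1, chr5:54985594-54985843, minus strand: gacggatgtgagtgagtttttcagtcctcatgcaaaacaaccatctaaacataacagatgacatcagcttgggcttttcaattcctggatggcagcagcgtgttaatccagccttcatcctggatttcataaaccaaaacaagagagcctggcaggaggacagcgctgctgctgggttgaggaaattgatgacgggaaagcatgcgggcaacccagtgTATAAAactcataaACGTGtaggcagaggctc
ADM, chr11:10304823-10305072, plus strand: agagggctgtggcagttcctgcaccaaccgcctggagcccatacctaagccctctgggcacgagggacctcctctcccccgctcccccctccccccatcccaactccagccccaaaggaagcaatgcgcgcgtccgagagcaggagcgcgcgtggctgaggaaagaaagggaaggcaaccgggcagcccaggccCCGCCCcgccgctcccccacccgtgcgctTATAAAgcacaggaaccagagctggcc
ANGPTL4, chr19:8363905-8364154, plus strand: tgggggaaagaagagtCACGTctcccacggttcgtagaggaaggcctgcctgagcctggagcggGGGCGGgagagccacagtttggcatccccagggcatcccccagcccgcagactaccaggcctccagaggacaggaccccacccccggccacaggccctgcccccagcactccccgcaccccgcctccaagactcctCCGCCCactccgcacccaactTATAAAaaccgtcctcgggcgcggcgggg
VEGFB, chr11:64234334-64234583, plus strand: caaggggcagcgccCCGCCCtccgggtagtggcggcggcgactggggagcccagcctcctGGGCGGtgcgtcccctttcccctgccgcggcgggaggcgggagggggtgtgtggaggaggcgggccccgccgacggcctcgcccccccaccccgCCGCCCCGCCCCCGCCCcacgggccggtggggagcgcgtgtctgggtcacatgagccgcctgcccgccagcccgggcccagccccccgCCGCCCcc

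A set of 8 motifs was searched on both strands: the hypoxia response core ACGTG, the AP-1 site TGANTCA, the ATF4 response element TGATGNAA, the cAMP response element TGACGTCA, the GC box GGGCGG, the TATA box TATAAA, the TEAD site GGAATG and the ETS site CCGGAAG. The windows of ESM1 (positions -32 to -27), ADM (-27 to -22) and ANGPTL4 (-29 to -24) held a TATA box, against 10.7% of all 35116 RefSeq windows of this length. These letters were not in the windows of VEGFB, VEGFC or PGF. GC boxes stood in the windows of 5 genes, all of the 6 but ESM1, against 42.6% of all windows. VEGFB held 6 matches, of which those at -96 to -91 and -91 to -86 share a base. The hypoxia response core stood in the ESM1 (-18 to -14) and ANGPTL4 (-234 to -230) windows, against 18.5% of all. AP-1, ATF4, cAMP, TEAD and ETS letters were in none of these windows, with 6.6%, 3.1%, 1.6%, 11.9% and 8.5% of all windows holding them. The GC content was 47.6% before ESM1, 68.0% before ADM, 68.8% before ANGPTL4, 74.0% before VEGFC and 82.8% before VEGFB, with a median of 58.0% over all windows. The GC of PGF, which has 2 overlapping windows, was 70.8% and 80.0%. A match is a description of these letters and not of binding.

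ESM1 had the widest range of the 7 genes. It was at 1.29 RPKM with vector, 115 with overexpression, 3.77 with scramble and 0 with knockdown. The overexpression library stood above the other 3, and the knockdown library was the only 1 in which the gene was listed at 0. The fold of overexpression over vector was 89.3 (interval 69.5 to 117; log2 ratio 5.66), rank 94 from the top of 13577 measured genes. Against the scramble library, which carries no MAGE-A1 construct either, the fold was 30.4 (25.4 to 36.8). About 62 reads stood behind the vector value, 2851 behind overexpression and 121 behind scramble. In the knockdown library 3 reads would have been 0.0776 RPKM. The log2 ratio of knockdown over scramble was -2.26, a value set by the pseudocount of 1, and no fold is given against a listed 0. A listed 0 can be a failed estimate. Of 11840 genes at 1 RPKM or more in the other 3 libraries, most small RNA genes left out by symbol, 2 were listed at 0 in the knockdown library, ESM1 and ANKRD30BL (the latter named after its value was seen).

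VEGFA was at 12.7 RPKM with vector, 72.2 with overexpression, 17.1 with scramble and 17.3 with knockdown. Only the overexpression library stood apart, and the other 3 lay between 12.7 and 17.3 RPKM. The fold of overexpression over vector was 5.67 (5.28 to 6.08; log2 ratio 2.41, rank 411 from the top), and over scramble it was 4.22 (3.92 to 4.55). The fold of knockdown over scramble was 1.01 (0.924 to 1.10), an interval that holds 1. In GENCODE 29 the gene has 32 transcripts, and the values are 1 per gene, so splice forms were not separated. VEGFA lies on chromosome 6 at 43770184 to 43786487 (GRCh38, plus strand), and ESM1 on chromosome 5 at 54977864 to 55022671 (minus strand). On the same build VEGFB lies on chromosome 11 at 64234538 to 64238793 and ADM on chromosome 11 at 10304680 to 10307397 (both plus strand), and ANGPTL4 on chromosome 19 at 8363289 to 8374373 (plus). VEGFC lies on chromosome 4 at 176683538 to 176792727 and PGF on chromosome 14 at 74941834 to 74955784 (both minus). Other annotated genes overlap VEGFA and VEGFC on the opposite strand (AL136131.3 and AC093801.1) and ESM1 on its own strand (AC034238.1), so reads of these pairs may not be separated.

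The other VEGF ligands did not share that pattern. VEGFB was at 29.5 RPKM with vector, 25.2 with overexpression, 36.4 with scramble and 94.7 with knockdown. It stood highest with knockdown, at a fold of 2.61 over scramble (2.39 to 2.84; log2 ratio 1.36, and 0.52, no longer called, with a trend on transcript length and GC content removed). PGF, placental growth factor, kept the same order of libraries at a lower level, with 2.69, 2.16, 3.91 and 7.97 RPKM (vector, overexpression, scramble, knockdown). Its fold of knockdown over scramble was 2.04 (1.63 to 2.57), and its log2 ratio of 0.87 was under the call. The folds of overexpression over vector were 0.852 for VEGFB (0.753 to 0.964) and 0.804 for PGF (0.558 to 1.13), both within 2-fold.

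VEGFC, the lymphatic factor, went the other way in the knockdown pair. It was at 9.79 RPKM with vector, 8.32 with overexpression, 14.2 with scramble and 4.15 with knockdown. The knockdown library was the lowest, at a fold of 0.293 over scramble (0.242 to 0.353; log2 ratio -1.56, rank 276 from the bottom of 13569 genes). Against the vector library its fold was 0.424 (0.351 to 0.511). With overexpression the fold over vector was 0.850, with an interval of 0.716 to 1.01 that includes 1.

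The most abundant VEGF ligand was VEGFA in the overexpression library and VEGFB in the other 3. Of the summed RPKM of the 5 family ligands, VEGFB made up 53.9% in the vector and 50.8% in the scramble library, and VEGFA 23.3% and 23.9%. In the overexpression library VEGFA made up 67.0% and VEGFB 23.3%, while in the knockdown library VEGFB made up 76.3% and VEGFA 13.9%. These shares are not corrected for that trend. VEGFC made up 17.9%, 7.7%, 19.8% and 3.3% (vector, overexpression, scramble, knockdown). The sums were 54.7, 108, 71.6 and 124 RPKM in the same order. The fifth ligand, VEGFD (listed as FIGF), was at 0.0474 RPKM or less in every library.

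**Figure D1:**
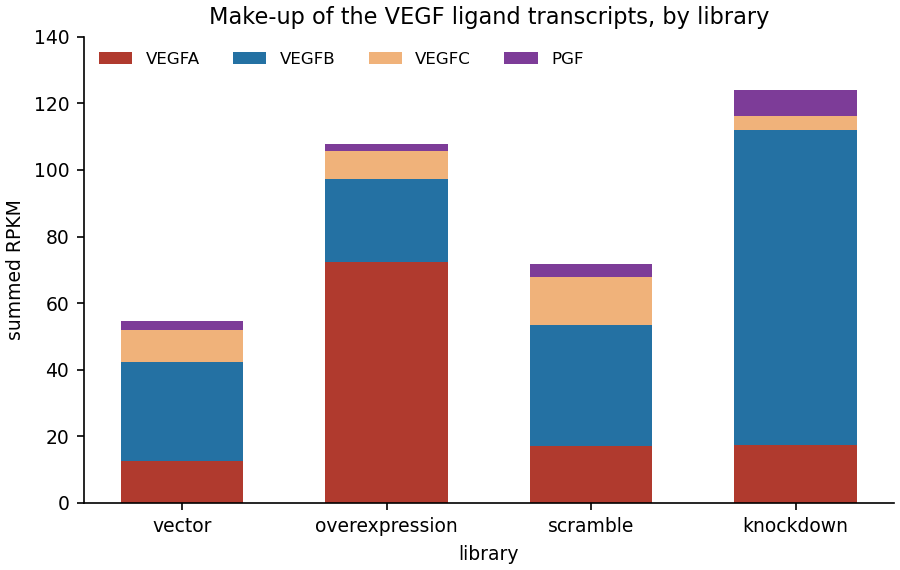
Summed RPKM of VEGFA, VEGFB, VEGFC and PGF (y axis) in each of the 4 libraries (x axis, 1 library per group, no error bars). VEGFA fills most of the overexpression bar (72.2 RPKM) and VEGFB most of the knockdown bar (94.7 RPKM).

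ADM was at 11.9 RPKM with vector, 38.0 with overexpression, 24.3 with scramble and 20.4 with knockdown. The overexpression library was the highest, but the scramble and knockdown libraries lay between it and the vector library. The fold of overexpression over vector was 3.19 (2.85 to 3.58; log2 ratio 1.60), and over scramble it was 1.57 (1.41 to 1.74), under 2-fold. The fold of knockdown over scramble was 0.843 (0.755 to 0.938). ANGPTL4 was at 3.33, 7.57, 5.71 and 9.46 RPKM (vector, overexpression, scramble, knockdown), so that both altered libraries stood above both controls. Its log2 ratio with overexpression was 0.98, just under the call (fold 2.27, 1.79 to 2.87), and with knockdown 0.64 (fold 1.66, 1.37 to 2.03). An antisense gene, RAB11B-AS1, overlaps ANGPTL4, and whether the counting used strand is not given in the sources used here, so reads of the pair may not be separated. This overlap and those named above are of whole gene spans, and exons were not compared.

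**Figure D2:**
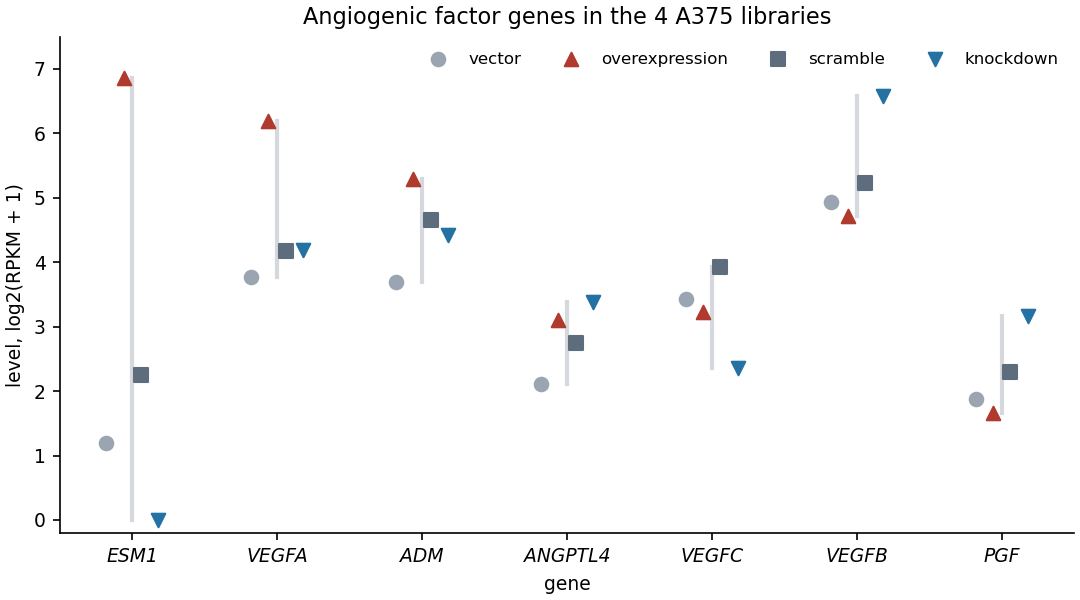
Levels of the 7 genes as log2(RPKM + 1) (y axis) in each library (1 point per library, x axis by gene, grey bars from the lowest to the highest library). ESM1 runs from 0 RPKM with knockdown to 115 with overexpression, and VEGFB and PGF have their highest point with knockdown.

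In the overexpression pair 3 of the 7 genes were called higher (ESM1, VEGFA and ADM) and 0 lower, beside 10.6% of 13577 measured genes higher and 7.28% lower. The members were picked on this contrast, so nothing is read from that count. In the knockdown pair 1 was called higher (VEGFB) and 2 lower (ESM1 and VEGFC), beside 12.4% of 13569 genes higher and 8.52% lower. The median log2 ratio of the 7 genes was 0.98 with overexpression and 0.01 with knockdown, and that of all genes 0.02 and 0.06. ESM1 alone of the 7 was called higher with overexpression and lower with knockdown. Since it was chosen for the first, the background is the 1317 genes called higher with overexpression and measured in both pairs, of which 9.64% were lower with knockdown, near the 8.52% of all genes.

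**Figure D3:**
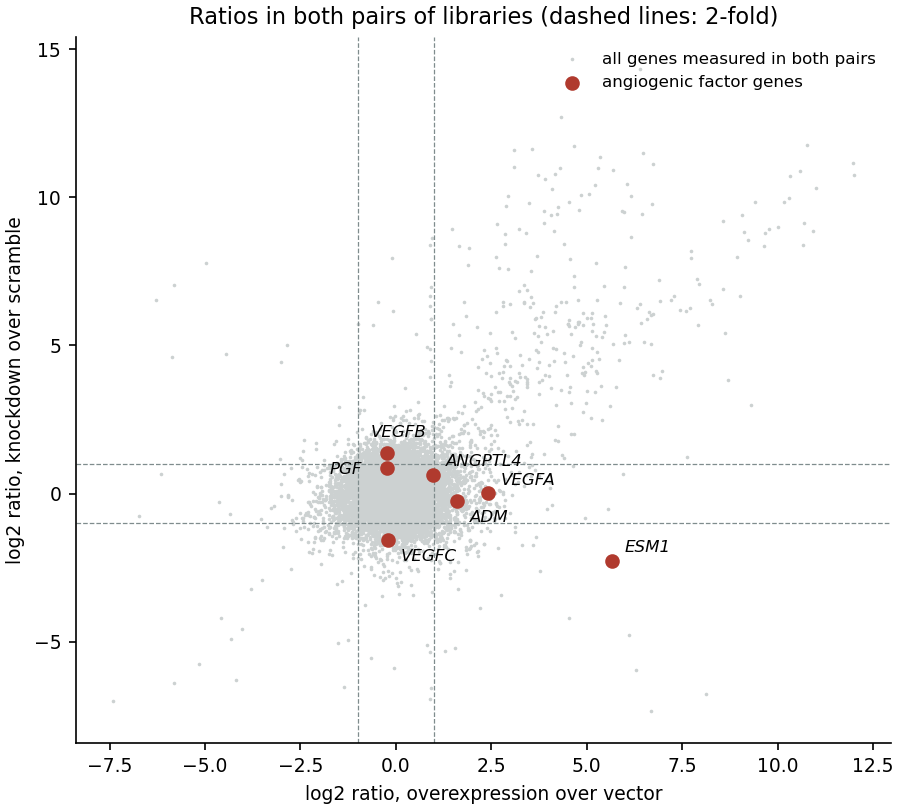
Log2 ratio of overexpression over vector (x axis) against that of knockdown over scramble (y axis) for 13106 genes measured in both pairs (grey) and the 7 angiogenic factor genes (red), with dashed lines at 2-fold. ESM1 lies far to the right and below the line (5.66 and -2.26), VEGFA and ADM lie to the right near the middle (2.41 and 0.01, 1.60 and -0.24), and VEGFB lies above the 2-fold line (1.36).

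All 7 genes had a higher level with scramble than with vector, by log2 ratios of 0.29 (VEGFB) to 1.06 (ESM1) with a median of 0.49. In that pair 47.6% of 13326 genes had a ratio above 0, and the median was -0.02. By the log2 ratio only ESM1 of the 7 was called (RPKM fold 2.94, 2.14 to 4.05). ADM was next at 0.97, under the call although its RPKM fold without the pseudocount was 2.04 (1.81 to 2.29), beside 0.893% of genes called higher and 1.79% called lower. Since the scramble library differs from the vector library in its plasmid and holds no construct directed at MAGE-A1, these values show how far the 7 genes vary between control libraries.

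Ratios in the knockdown pair moved with transcript length and GC content. Spearman's rho across 11680 genes was -0.526 with length and 0.431 with GC content, given as a description since genes are not independent replicates. VEGFB (transcript of 1380 nt, 66.7% GC), ANGPTL4 (1879 nt, 63.3%) and PGF (1927 nt, 64.5%) are short or GC-rich, and VEGFC (2064 nt) has 51.4% GC. With a fitted trend on both removed, the VEGFB log2 ratio was 0.52, under the call, and those of PGF and ANGPTL4 were 0.23 and 0.03. VEGFC was at -1.83 and ESM1 at -2.23, both still called lower. With overexpression rho was 0.051 with length and -0.211 with GC, and the trend-removed ratios were 5.47 for ESM1, 2.47 for VEGFA, 1.75 for ADM and 1.13 for ANGPTL4, the last now past 2-fold. Between the controls rho with GC was 0.527, and with the trend removed all 7 genes were still above 0, at 0.14 to 1.24.

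**Figure D4:**
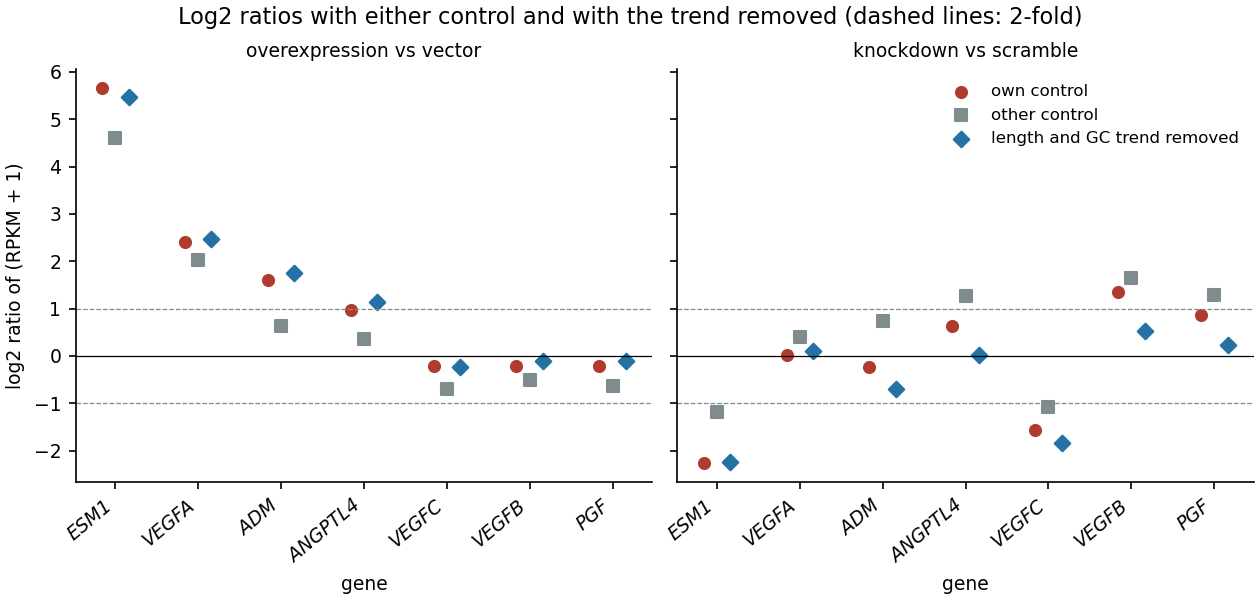
Log2 ratios of the 7 genes (y axis) against their own control, against the other control and with the length and GC trend removed, in the overexpression pair (left) and the knockdown pair (right), with dashed lines at 2-fold. ESM1 and VEGFA stay above the upper line on the left and ESM1 and VEGFC below the lower line on the right, while VEGFB on the right drops to 0.52 with the trend removed.

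Receptors for these factors were present in the melanoma cells only in part. Of 5 VEGF receptors and coreceptors, 4 were measured with overexpression, where 1 was higher and 1 lower, and with knockdown 0 were higher and 1 lower. Of all measured genes 10.6% were higher and 7.28% lower with overexpression, and 12.4% and 8.52% with knockdown. These shares are the background for the counts of every list below. With the trend removed or against the other control no such share was worked out. NRP1, a coreceptor for VEGFA, was at 14.5 RPKM with vector, 65.5 with overexpression, 19.6 with scramble and 5.47 with knockdown, log2 ratios of 2.10 and -1.67. The coreceptor NRP2 was at 36.9, 54.0, 43.1 and 28.8 RPKM (vector, overexpression, scramble, knockdown). FLT1, which PGF and VEGFB bind, was at 8.84, 8.93, 5.94 and 3.7 RPKM in the same order. KDR, the main signalling receptor of VEGFA, was at 3.12 and 0.404 RPKM in the vector and overexpression libraries, and at 1.14 and 0.852 in the other pair, so that against scramble its overexpression ratio of -1.55 was -0.61, no call. FLT4, the receptor of VEGFC, was at 0.0355 RPKM or listed at 0. Of 8 adrenomedullin peptide and receptor genes, a list that includes the member ADM, 3 were measured. In each pair 2 were higher and 0 lower (1 higher with knockdown once the trend was removed). With overexpression the 2 were ADM2 and ADM itself, and with knockdown ADM2 and RAMP1. CALCRL, the receptor chain, was at 0.0846 RPKM or less in every library. ADM2, a related peptide, was at 0.423 and 26.1 RPKM in the overexpression pair and 0.683 and 4.72 in the knockdown pair. RAMP1, a partner of CALCRL, was at 16.6 and 47.8 RPKM in the knockdown pair, a log2 ratio of 1.47 that was 0.45 with the trend removed. The listed receptor parts RAMP2 and RAMP3 were not measured, with RAMP2 at 0.676 RPKM or less and RAMP3 listed at 0 in every library.

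Among 15 genes of the angiopoietin and ANGPTL family with their receptors and lipases, 6 were measured with overexpression and 0 were past 2-fold. With the trend removed 2 were higher, ANGPT4 and the member ANGPTL4. With knockdown 1 of 5 was lower, the endothelial receptor TIE1 at 3.90 and 0.055 RPKM. TIE1 was at 0.794 RPKM with vector and was called higher with scramble than with vector, and its knockdown ratio of -2.22 was -0.77 against vector, no call. LPL, the lipase that ANGPTL4 inhibits, was at 11.6, 10.5, 5.98 and 7.45 RPKM (vector, overexpression, scramble, knockdown). Of 33 other secreted angiogenic factors, 20 were measured with overexpression. Of these 8 were higher and 2 lower (median 0.66), beside 10.6% and 7.28% of all genes. With the trend removed 7 were higher and 4 lower of the 19 with a value. CXCL2, a chemokine, was at 0.527 and 8.99 RPKM, HBEGF, a ligand of the EGF receptor, at 3.70 and 25.0, and PDGFA, which acts on mesenchymal cells, at 5.23 and 29.8. With knockdown 0 of 19 were higher and 8 were lower (median -0.80), beside 12.4% and 8.52% of all genes. Among the 8, IL8 was at 62.5 and 5.75 RPKM, CXCL1 at 63.9 and 7.52 and the matricellular CTGF at 50.4 and 9.41. With the trend removed 7 of the 18 with a value were lower (median -0.90), not all of them the same genes, and IL8 had no value. Against the vector library 4 of 18 were lower. By the calls against their own control, only IL8, CYR61 and CTGF were both higher with overexpression and lower with knockdown. Of 15 measured angiogenesis inhibitors, 0 were higher and 2 lower with overexpression (median 0.07), beside 10.6% and 7.28% of all genes. VASH1 was at 10.5 and 1.57 RPKM and SPARC at 925 and 425. With knockdown 1 was higher and 4 lower (median -0.45), with THBS1, thrombospondin, at 294 and 33.3 RPKM, the semaphorins SEMA3F at 19.9 and 2.35 and SEMA3A at 18.6 and 3.99. SEMA3F was at 5.58 RPKM with vector and was called higher with scramble than with vector, and its knockdown ratio of -2.64 was -0.97 against vector, under the call. With the trend removed 0 inhibitors were higher and 3 lower.

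Hypoxia factors and ATF4 are known to act on VEGFA, and whether either did so here was not tested. The list of HIF target genes leaves out the members VEGFA, ADM and ANGPTL4. HIF1A, the oxygen-sensitive subunit of the hypoxia factor, was at 63.3 and 221 RPKM in the overexpression pair (log2 ratio 1.79), the only 1 of 9 measured HIF and oxygen-sensing genes past 2-fold there. With knockdown 1 was lower, the oxygen sensor EGLN1, and its log2 ratio of -1.03 was -0.46 with the trend removed. Of 23 measured HIF target genes 1 was higher and 3 lower with overexpression (median -0.27), beside the 10.6% and 7.28% of all genes. With the trend removed 2 were higher and 2 lower. STC2 was at 1.96 and 33.4 RPKM, while CA9, carbonic anhydrase 9, was at 4.71 and 0.175 and LDHA, lactate dehydrogenase A, at 392 and 170 (log2 ratio -1.20, and -0.99 against scramble). With knockdown 0 were higher and 3 lower (median -0.31), the glucose transporter SLC2A1 at 84.2 and 38.8 RPKM, the hexokinase HK2 at 20.4 and 8.11 and the demethylase KDM3A at 18.0 and 7.29. With the trend removed SLC2A1 was the 1 lower call, and its ratio of -1.10 was -0.66 against vector. The list named ATF4 pathway also holds XBP1, ATF6, ERN1, HSPA5 and HERPUD1, which belong to other arms of the unfolded protein response. Of its 17 genes, 13 were higher and 0 lower with overexpression (median 2.19), and 5 higher and 0 lower with knockdown (median 0.82). XBP1, ERN1, HSPA5 and HERPUD1 were among the 13 but not among the 5. With the trend removed 15 were higher with overexpression (median 1.97) and 4 with knockdown (median 0.53), and 0 were lower in either pair. ATF4 and PPP1R15A were then no longer called with knockdown, while SLC7A11 was. CHAC1 was at 2.06 and 95.1 RPKM in the first pair and 3.24 and 34.5 in the second, and the factor DDIT3 at 32.0 and 622 and at 34.2 and 169. PPP1R15A, a phosphatase subunit, was at 30.9 and 465 RPKM in the first pair, and the pseudokinase TRIB3 at 20.9 and 111 in the second.

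Of 14 measured genes tied to PPAR factors or fasting, the member ANGPTL4 among them, 1 was higher and 3 lower with overexpression (median -0.24). PDK4, which holds back pyruvate oxidation, was at 9.60 and 0.631 RPKM, CAT at 45.9 and 11.5, and the heart fatty acid binding protein FABP3 at 2.54 and 0.264 (log2 ratio -1.48, and -0.86 against scramble). With knockdown 1 was higher and 1 lower, and 0 either way with the trend removed. PLIN2, the lipid droplet coat protein, was at 135 and 281 RPKM in the knockdown pair (log2 ratio 1.05, and 0.99 against vector) and PDK4 at 3.55 and 1.25. Of 10 RNA binding proteins that act on AU-rich elements, present in VEGFA messages, 2 were higher and 1 lower with overexpression, with ZFP36 at 14.7 and 49.5 RPKM, CELF1 at 51.0 and 117 and ZFP36L2 at 38.6 and 18.3 (log2 ratio -1.04, and -0.91, no call, with the trend removed). With knockdown 0 were higher and 1 lower, TIA1 at 10.5 and 4.06 (log2 ratio -1.18, and -0.62 with the trend removed), and the trend-removed ratios gave 1 higher and 0 lower.

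**Figure D5:**
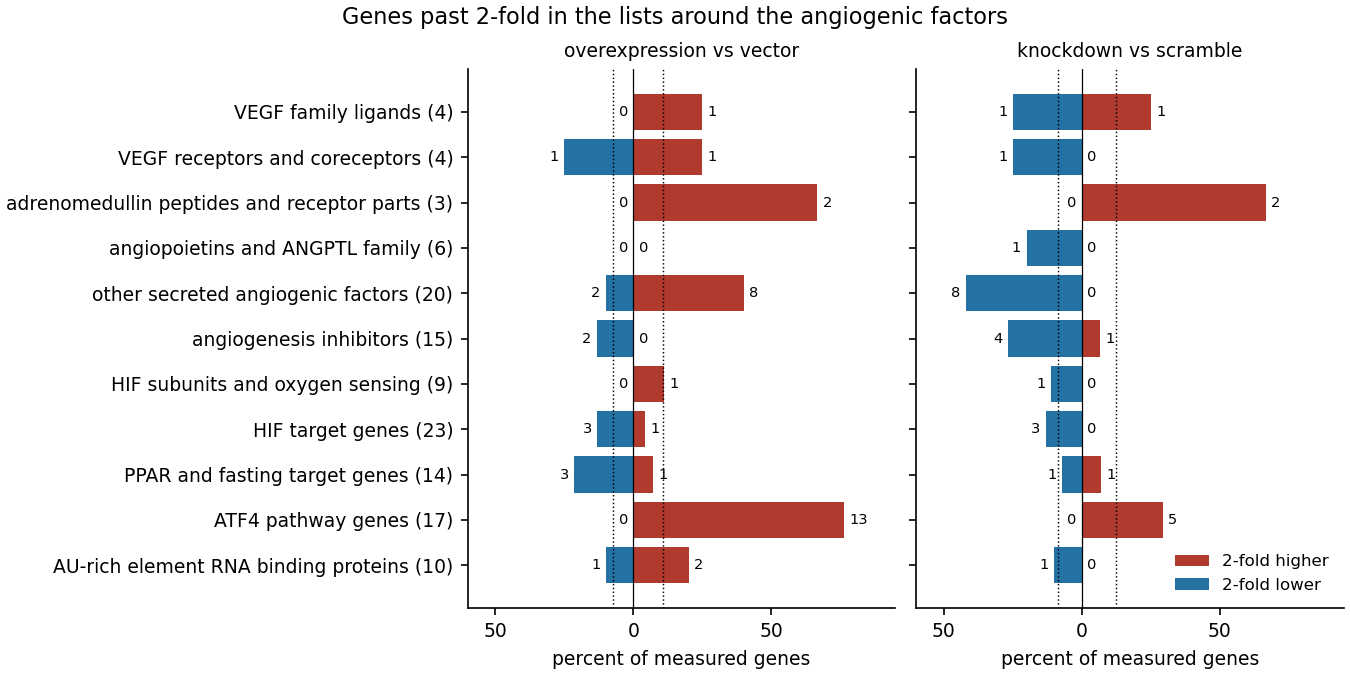
Percent of measured genes of each list past 2-fold higher (red, to the right) or lower (blue, to the left) in the overexpression pair and the knockdown pair, with the number of genes at each bar end, the number measured in the overexpression pair in brackets and dotted lines at the share of all genes. The bar labelled ATF4 pathway genes, which also covers other unfolded protein response genes, reaches 13 of 17 on the left. That of other secreted angiogenic factors is 8 higher on the left and 8 lower on the right, with only IL8, CYR61 and CTGF in both counts. The VEGF ligand, adrenomedullin, ANGPTL family and PPAR lists include members.

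The genes most like each of the 7 were sought by the Euclidean distance of log2(RPKM + 1), centred on the gene mean, over the 4 libraries among 13085 genes. The values were not scaled, so a gene with a wide range lies far from most genes. ESM1 was chosen for its high overexpression value, so its distances and neighbours follow in part from that choice and are a description only. For ESM1, IL11, a cytokine of the IL6 family, was nearest at 1.52 with 6.50, 352, 14.3 and 9.69 RPKM (vector, overexpression, scramble, knockdown). MAGEA1 itself at 1.56 and the sphingosine phosphate receptor S1PR1 at 1.89 came next. For the other 6 genes the nearest gene lay at 0.05 to 0.19. GEM, a small GTPase (0.18), KRT15, a keratin (0.18), and MAFF, a transcription factor (0.21), were nearest to VEGFA. JDP2, an AP-1 factor (0.19), PLAUR, the urokinase receptor (0.21), and CYP27B1, which activates vitamin D (0.24), were nearest to ADM. PTPRR (0.12) and the matrix proteoglycan HSPG2 (0.13) came after C9orf129 (0.12) for VEGFC. SCNM1 (0.06) and DYNLRB1 (0.07) came after HIST1H1A (0.05) for VEGFB. HIST1H1A was at only 0.21, 0, 0.421 and 2.64 RPKM (vector, overexpression, scramble, knockdown), so the pseudocount of 1 weighs on its distance. TMEM160 (0.05), ATPIF1 (0.08) and ECH1 (0.09) were nearest to PGF, and PKMYT1 (0.09), WNT10B (0.13) and CYSTM1 (0.16) to ANGPTL4. Among the 7 genes themselves VEGFB and PGF were the closest pair at 0.37, and VEGFB and ESM1 the farthest at 6.30.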

How the data were processed

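RNA was measured in 4 A375 libraries, 1 per group, grouped by sample title. The deposited values are RPKM per the file headers, thus divided by the authors by gene length and sequencing depth. Cufflinks 2.2.0, TopHat2 2.0.13, Bowtie2 2.2.4, SAMtools 1.1 and hg19 are listed in the submitters' processing notes, with no role or order. For annotation, counts and filters the sources used here give nothing. The members and lists were chosen with earlier results of these data known.

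Ratios were computed in Python 3.11.15 with a pseudocount of 1 for genes that reached 1 RPKM in at least 1 library of the pair. Calls needed a log2 ratio of 1 in size. Depth came from the whole-read steps of low RPKM in 2120 genes with 1 GENCODE 29 transcript, using length minus 200 nt. Between 63.4% and 69.8% of the lowest values fell no further than 0.1 from a whole number of reads, where 20% is the share for even spacing. Reads per gene use the longest transcript matched to RefSeq and are estimates. The trend was a loess fit (span 0.3) in R 4.3.3 on transcript length and GC content, small RNA genes left out by symbol (snoRNA, microRNA, spliceosomal and the like, not SNAR genes). Ratio, depth, interval and trend steps were tested on simulated data.

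Named genes are the 7 members, MAGEA1, up to 3 genes per list and pair with the largest ratio in size (past 2-fold, at 2 RPKM or more) and the 3 genes most like each member. Receptors, LPL, FIGF, marker genes, ANKRD30BL and any other genes outside that rule were named after their values were seen. GRCh38 coordinates are from GENCODE 29, and windows from RefSeq. Alternatives covered the pseudocount, the filter, the control library, scaling, small RNA genes, the threshold and the trend.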

Additional observations from a re-analysis of the deposited data

How the results depend on the processing

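With overexpression the count of members called higher was 2 to 4 under every alternative run (3 as reported) and that of members called lower was 0. The 2 came from the scramble library as control, where ADM was at 0.63. ANGPTL4 passed 2-fold with a pseudocount of 0.1 or 0.5 and with the trend removed. With knockdown, 1 member was called higher as reported. It was 2 with a pseudocount of 0.1 or against the mean of both controls, 3 against the vector library or at a 1.5-fold threshold, and 0 at a 3-fold threshold or with the trend removed, an alternative that for these counts was chosen after seeing the data. The number called lower was 2 as reported and 1 with a filter at 5 RPKM or at the 3-fold threshold. Between the controls, 1 member was called higher as reported, 2 with a pseudocount of 0.1, 3 at 1.5-fold and 0 with a filter at 5 RPKM or at 3-fold. The share of all genes called was worked out only for the setting as reported. The counts under the alternatives thus have no background beside them, and nothing is read from them about the members. Upper-quartile scaling moved the median of all genes by -0.18 with overexpression and by -0.04 in the other pairs, and left the counts as reported. The ESM1 ratio ran from 4.60 to 6.37 with overexpression and from -5.28 to -1.19 with knockdown, where the ends came with a pseudocount of 0.1 and with the vector library as control. VEGFA with overexpression ran from 2.02 to 2.49 and VEGFC with knockdown from -1.83 to -1.07, while VEGFB with knockdown ran from 0.52 to 1.65. ADM with knockdown ran from -0.69 to 0.73, so its sign turned with the control. Alternatives for the gene lists were chosen after seeing the data. Against the vector library, genes lower with knockdown were 3 in place of 1 of the VEGF receptors and 4 in place of 8 of the other secreted factors. No paired analysis was possible because each group held 1 library. With 1 library per group, spread between cultures is unknown, and intervals cover counting alone.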
